A study of Mus musculus with 11 samples.

Results

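The linker histone genes of the mouse were followed from the MII oocyte to the late 2-cell embryo. They are the oocyte gene H1f8 (also H1foo), the replacement genes H1f0 and H1f10 (H1fx), and the 5 genes of the replication-dependent cluster, H1f1 (Hist1h1a), H1f2 (Hist1h1c), H1f3 (Hist1h1d), H1f4 (Hist1h1e) and H1f5 (Hist1h1b). The genes were picked by name, not by their values, and all 8 were present among the 24421 genes of the count table. The study set oocytes and embryos of females that lost Daxx, a chaperone gene of the histone variant H3.3, beside those of females that kept it. The maternal knockout 2-cell embryos (labelled m-z+) came from Daxx f/f, Zp3-cre females, and the control 2-cell embryos (m+z+) from Daxx f/f females without Cre. Both were made by in vitro fertilisation with sperm of JF1 males, grown in KSOM medium and taken 33 h after fertilisation. The knockout and control MII oocytes came from the same kinds of females at 20 h after hCG. All groups shared the floxed Daxx alleles, a mixed C57BL/6J and 129/Sv maternal background, females over 8 weeks old and hormone-induced ovulation. Zp3-cre is active in growing oocytes. Embryos received a paternal Daxx allele from the JF1 sperm, and of the females only knockouts carried Cre, so that the deletion and the transgene cannot be told apart. There were 2 maternal knockout embryo libraries, 3 control embryo libraries, 3 knockout oocyte libraries and 3 control oocyte libraries, each 1 pool of 50 cells or embryos from 2 to 3 females.

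Linker histones bind the nucleosome where DNA enters and leaves it, and help to fold chromatin. H1f8 encodes the oocyte form, which is deposited during oocyte growth, coats sperm-derived chromatin after fertilisation and is later replaced by the somatic forms. The cluster genes H1f1 to H1f5 are transcribed mainly in S phase, and their mRNAs end in a conserved stem-loop instead of a poly(A) tail, whereas H1f0 and H1f10 give polyadenylated mRNAs outside S phase, H1f0 mainly in differentiated cells. Fully grown oocytes are transcriptionally silent, and in the mouse the main burst of embryonic transcription falls in the late 2-cell stage.

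The genes lie in several places of the genome (GRCm38). H1f8, the one gene of the 8 with introns, spans chr6:115944931-115950242 with up to 5 exons. H1f10 lies on the same chromosome at chr6:87980421-87981482 and H1f0 at chr15:79028212-79030504. The cluster genes lie on chromosome 13, with H1f5 at chr13:21779832-21780625, H1f3 at chr13:23555032-23555807, H1f4 at chr13:23621777-23622558, H1f2 at chr13:23738807-23739531 and H1f1 at chr13:23763668-23764412. H1f10, H1f4 and H1f5 are on the minus strand, and RefSeq places no other gene over any of the 8. Promoters are shown for the gene with the steepest fall between the stages (H1f8), the gene with the steepest rise (H1f5) and the gene with most transcript in the embryo (H1f1). Each runs 250 bases before to 50 bases after the start of the gene in RefSeq (GRCm38.p6), with capitals for 3 motifs on either strand. They are the H1 box (AAACACA), known from replication-dependent linker histone genes, then the common promoter element CCAAT, and lastly the letters TATAAA of a TATA box. In order, the windows are chr6:115944681-115944980 (plus strand), chr13:21780576-21780875 (minus strand) and chr13:23763418-23763717 (plus strand).
H1f8: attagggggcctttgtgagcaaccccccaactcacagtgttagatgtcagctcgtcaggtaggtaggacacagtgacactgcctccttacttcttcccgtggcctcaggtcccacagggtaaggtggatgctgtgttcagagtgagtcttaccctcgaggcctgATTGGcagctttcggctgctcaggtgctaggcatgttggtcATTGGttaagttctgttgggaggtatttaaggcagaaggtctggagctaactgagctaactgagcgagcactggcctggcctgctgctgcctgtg
H1f5: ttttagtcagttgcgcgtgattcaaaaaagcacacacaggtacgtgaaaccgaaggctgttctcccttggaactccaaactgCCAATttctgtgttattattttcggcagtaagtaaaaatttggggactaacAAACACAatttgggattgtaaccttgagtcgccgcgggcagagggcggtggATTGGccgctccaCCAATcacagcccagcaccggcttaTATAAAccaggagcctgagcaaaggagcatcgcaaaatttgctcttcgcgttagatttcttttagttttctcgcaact
H1f1: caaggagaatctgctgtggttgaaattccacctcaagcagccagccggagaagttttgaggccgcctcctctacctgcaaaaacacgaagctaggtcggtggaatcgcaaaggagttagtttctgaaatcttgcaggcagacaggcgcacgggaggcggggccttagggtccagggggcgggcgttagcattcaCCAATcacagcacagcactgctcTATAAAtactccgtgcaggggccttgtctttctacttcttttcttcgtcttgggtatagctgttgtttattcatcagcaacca
The H1f8 window held CCAAT on the reverse strand only, and no H1 box or TATAAA. The H1f5 window held an H1 box starting at base -117 and TATAAA at -28, and the H1f1 window held CCAAT at -56 and TATAAA at -33 without an H1 box. Among the other members, H1f2, H1f3 and H1f4 held an H1 box between -122 and -112, and H1f0 and H1f10 held none of these motifs. Across 32851 promoter windows of the same length, 7.18% held the H1 box, 37.4% CCAAT and 13.6% TATAAA. The NOBOX-type element TAATTG, found in 8.00% of windows, was in none of the 8. A match is a run of letters, not a measured binding site.

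The stem-loop of replication-dependent mRNAs was found in the GENCODE transcripts of H1f2, H1f3 and H1f4. It was searched as a stem of 6 bases starting GG and a loop of 4 bases starting TT, and the capitals mark stem, loop and stem. The sites lie at chr13:23739512-23739527, chr13:23555787-23555802 and, on the minus strand, chr13:23621782-23621797.
H1f2: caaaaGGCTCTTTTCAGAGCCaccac
H1f3: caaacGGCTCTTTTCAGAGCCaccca
H1f4: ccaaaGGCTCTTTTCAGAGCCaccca
The 16 bases in capitals were identical in the 3 genes. The annotated transcripts of H1f1 and H1f5 end 6 and 51 bases before the RefSeq ends of these genes and held no such run. The last bases of these genes were thus not searched, and a stem-loop there would have been missed. The annotated transcripts of H1f2, H1f3 and H1f4 run past the RefSeq ends. The stem-loop was present in 0.594% of 21877 protein-coding genes and in 65.6% of 61 core histone genes.

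The libraries held 17978192 to 25308468 counted reads in embryos and 32582998 to 39798586 in oocytes. Daxx, the targeted gene, lay between 22.8 and 25.5 CPM (counts scaled to a common total of counted reads per library) in maternal knockout embryos, 35.2 and 46.7 CPM in control embryos, 7.83 and 8.40 CPM in knockout oocytes and 86.2 and 97.2 CPM in control oocytes. The summed CPM of 9 markers of the 2-cell embryo was 866 to 915 in maternal knockout embryos and 774 to 913 in control embryos, against 2.65 to 4.73 in knockout oocytes and 2.54 to 3.07 in control oocytes. By these markers each library went with its labelled stage. The summed CPM of 10 oocyte markers was 2171 to 2213 and 1677 to 2025 in these embryo groups, and 13182 to 13712 and 13156 to 13469 in these oocyte groups. All 12 markers of granulosa and cumulus cells together gave 51.3 to 67.9, 53.9 to 66.4, 29.4 to 31.4 and 28.6 to 31.3 CPM in the same order of groups, most of it Amhr2 in embryos and Cyp19a1 in oocytes. The 10 spermatid and sperm markers gave 240 to 269, 235 to 248, 210 to 219 and 198 to 207 CPM, nearly all of it Odf2. No read of Inha was counted in embryos, and none of Ptx3, Inhbb, Tnp1, Tnp2 or Smcp in oocytes. These sums changed between the stages, as did most linker histone genes, in both directions. The part of these sums in the results was not tested.

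The linker histone transcripts of the 2-cell embryo differed from those of the oocyte. H1f8 fell 39.0-fold in control embryos relative to control oocytes, while the cluster genes H1f5, H1f2 and H1f1 rose 80.0-fold, 3.34-fold and 2.14-fold. H1f0 did not pass the test in either lineage. In all, 3 of the 8 genes were higher and 3 lower in control embryos at an adjusted p under 0.05 (edgeR's quasi-likelihood F test, Benjamini-Hochberg over 15577 genes). A change was also the rule for other genes, since 83.1% of all genes tested passed, 43.1% as higher and 40% as lower. The 8 members had a median log2 change of -0.05, beside 0.07 over all genes tested. In maternal knockout embryos against knockout oocytes (the knockout lineage), which share no library with the controls, 3 members were higher and 4 lower, where 80.2% of 16592 genes passed, 42.5% as higher and 37.7% as lower. As each library is a pool and CPM is relative to all counted reads, fewer cells with a transcript and less of it per cell cannot be told apart. The fold changes too are relative to the other transcripts counted, and do not give amounts per oocyte or embryo.

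**Figure D1:**
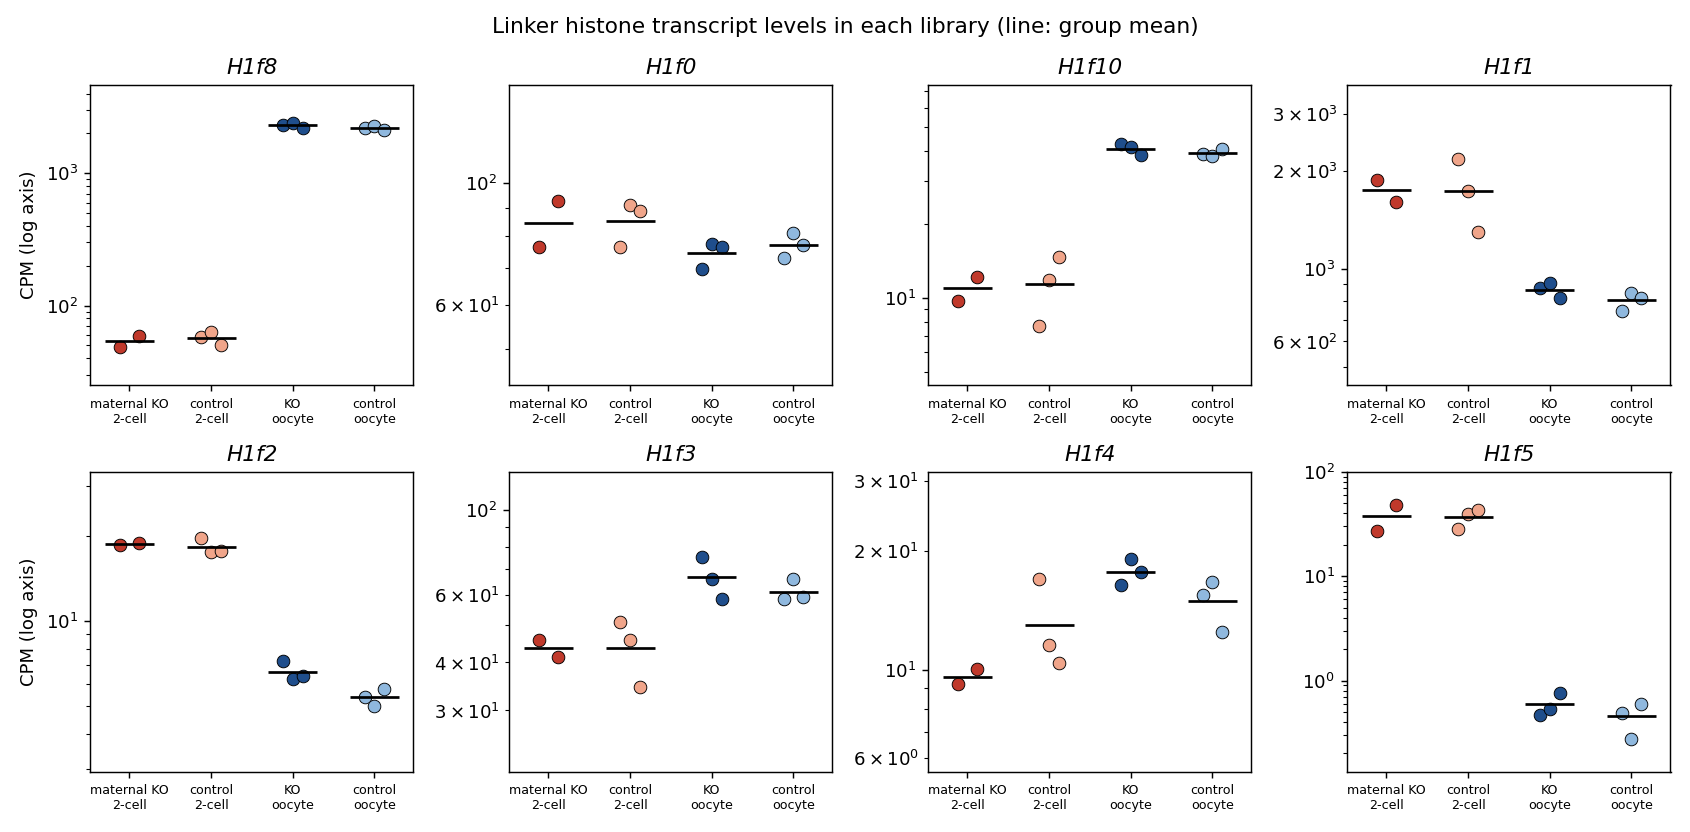
CPM of each linker histone gene in each library (log axis, scaled by gene), from left to right maternal knockout 2-cell embryos, control 2-cell embryos, knockout oocytes and control oocytes; points are libraries and lines are group means. H1f8 lies between 48.8 and 63.1 CPM in the 5 embryo libraries and between 2103 and 2390 CPM in the 6 oocyte libraries, and the genotypes overlap within a stage for every gene except H1f2 in oocytes and H1f4 in embryos.

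H1f8 had 48.8 and 59.4 CPM in maternal knockout embryos and 58.4, 63.1 and 50.1 CPM in control embryos. It had 2324, 2390 and 2188 CPM in knockout oocytes and 2213, 2276 and 2103 CPM in control oocytes. All 5 embryo libraries thus lay far below all 6 oocyte libraries, and within each stage the genotypes overlapped. The log2 change was -5.29 (SE 0.12, adjusted p = 1.3e-11, edgeR) from 3 control embryo and 3 control oocyte libraries, the 20th lowest of 15577 genes. In the knockout lineage it was -5.45 (SE 0.13, adjusted p = 1.4e-09, edgeR), the 22nd lowest of 16592. Ordered by mean level, knockout oocytes came first with 2300 ± 103 CPM, then control oocytes with 2197 ± 87.4, control embryos with 57.2 ± 6.57 and maternal knockout embryos with 54.1 ± 7.47 CPM (SD, n = 3, 3, 3 and 2), and neighbours within a stage did not differ beyond their spread. Per length, H1f8 ranked 3rd of 24421 genes in RPKM (CPM divided by the deposited gene width in kilobases) in both oocyte groups, and 1593rd in maternal knockout and 1519th in control embryos.

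H1f0, the replacement linker histone of non-dividing cells, had 76.5 and 92.7 CPM in maternal knockout embryos and 76.3, 91.1 and 88.7 CPM in control embryos, against 69.7, 77.3 and 76.3 CPM in knockout oocytes and 72.9, 81.0 and 77.0 CPM in control oocytes. These ranges overlapped among all 4 groups. The stage change was 0.12 on the log2 scale in controls (95% interval -0.09 to 0.34, adjusted p = 0.26, edgeR) and 0.14 in the knockout lineage (-0.12 to 0.40, adjusted p = 0.28, edgeR). It passed in controls with DESeq2 (log2 0.22, adjusted p = 0.049) and in the knockout lineage without maternal knockout embryo replicate 2 (log2 0.29, adjusted p = 0.011, edgeR). By mean level, control embryos (85.4 ± 7.92 CPM) and maternal knockout embryos (84.6 ± 11.4) came before control oocytes (76.9 ± 4.03) and knockout oocytes (74.4 ± 4.14), with no neighbours apart beyond their spread (SD, n = 3, 2, 3 and 3).

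H1f10, the other gene expressed outside S phase, went with H1f8 in direction. Its level was 9.68 and 12.2 CPM in maternal knockout embryos and 7.68, 11.9 and 14.7 CPM in control embryos, against 42.7, 41.5 and 38.4 CPM in knockout oocytes and 38.9, 38.0 and 40.7 CPM in control oocytes. No embryo library reached an oocyte library. The log2 change was -1.80 in controls (SE 0.19, adjusted p = 2.7e-06, edgeR) and -1.95 in the knockout lineage (SE 0.14, adjusted p = 1.1e-06, edgeR). Control embryo libraries varied among themselves: replicate 1 had the lowest H1f10, H1f0 and H1f5 and the highest H1f1, H1f2, H1f3 and H1f4 of the 3.

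Per length, in RPKM, H1f1 was the most abundant linker histone transcript of the embryo. It had 1885 and 1615 CPM in maternal knockout embryos and 2183, 1745 and 1303 CPM in control embryos, against 873, 906 and 816 CPM in knockout oocytes and 744, 846 and 819 CPM in control oocytes. The embryo libraries were all above the oocyte libraries, although control embryos ranged widely. The log2 change was 1.10 in controls (SE 0.16, adjusted p = 5.6e-05, edgeR) and 0.97 in the knockout lineage (SE 0.08, adjusted p = 2.7e-06, edgeR). Its transcript was abundant already in the oocyte: in RPKM it ranked 13th and 11th in maternal knockout and control embryos and 12th and 14th in knockout and control oocytes. In CPM, with no division by width, it ranked 20th and 19th in these embryos and 116th and 146th in these oocytes.

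H1f5 showed the widest change. It had 27.3 and 48.5 CPM in maternal knockout embryos and 28.6, 39.7 and 43.4 CPM in control embryos, against 0.471, 0.532 and 0.768 CPM in knockout oocytes and 0.491, 0.276 and 0.599 CPM in control oocytes. The oocyte values rest on 18, 20 and 29 reads in knockout and 16, 11 and 23 reads in control libraries, above the 3 reads taken as the floor of detection. The embryo libraries stood apart from the oocyte libraries by more than an order of magnitude. The log2 change was 6.32 in controls (SE 0.26, adjusted p = 9e-10, edgeR) and 5.95 in the knockout lineage (SE 0.32, adjusted p = 2.6e-07, edgeR).

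H1f2 rose by less. It had 18.6 and 18.9 CPM in maternal knockout embryos and 19.7, 17.6 and 17.7 CPM in control embryos, against 7.23, 6.25 and 6.38 CPM in knockout oocytes and 5.40, 5.03 and 5.75 CPM in control oocytes. Embryo and oocyte libraries did not overlap. The log2 change was 1.74 in controls (SE 0.15, adjusted p = 5.2e-07, edgeR) and 1.45 in the knockout lineage (SE 0.14, adjusted p = 8.2e-06, edgeR).

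H1f3 and H1f4, from the same cluster, did not rise. H1f3 had 45.8 and 41.3 CPM in maternal knockout embryos and 50.9, 45.8 and 34.6 CPM in control embryos, against 75.5, 66.1 and 58.5 CPM in knockout oocytes and 58.5, 65.9 and 59.1 CPM in control oocytes. It was lower in every embryo library than in any oocyte library, with a log2 change of -0.51 in controls (SE 0.14, adjusted p = 0.0064, edgeR) and -0.66 in the knockout lineage (SE 0.11, adjusted p = 0.00043, edgeR). H1f4 had 9.21 and 10.04 CPM in maternal knockout embryos and 17.0, 11.6 and 10.4 CPM in control embryos, against 16.4, 19.1 and 17.7 CPM in knockout oocytes and 15.5, 16.7 and 12.5 CPM in control oocytes. In the knockout lineage embryos and oocytes did not overlap, while in controls embryo replicate 1 lay above all control oocytes. H1f4 fell by 0.93 on the log2 scale in the knockout lineage (SE 0.14, adjusted p = 0.00022, edgeR), and its control value of -0.22 (SE 0.20, adjusted p = 0.33, edgeR) did not pass, but did without control embryo replicate 1 (log2 -0.48, adjusted p = 0.025, edgeR). Ranges of embryo and oocyte libraries did not overlap for 6 of the 8 genes in controls and 7 of 8 in the knockout lineage, as they did not for 85% and 86.9% of all genes tested.

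**Figure D2:**
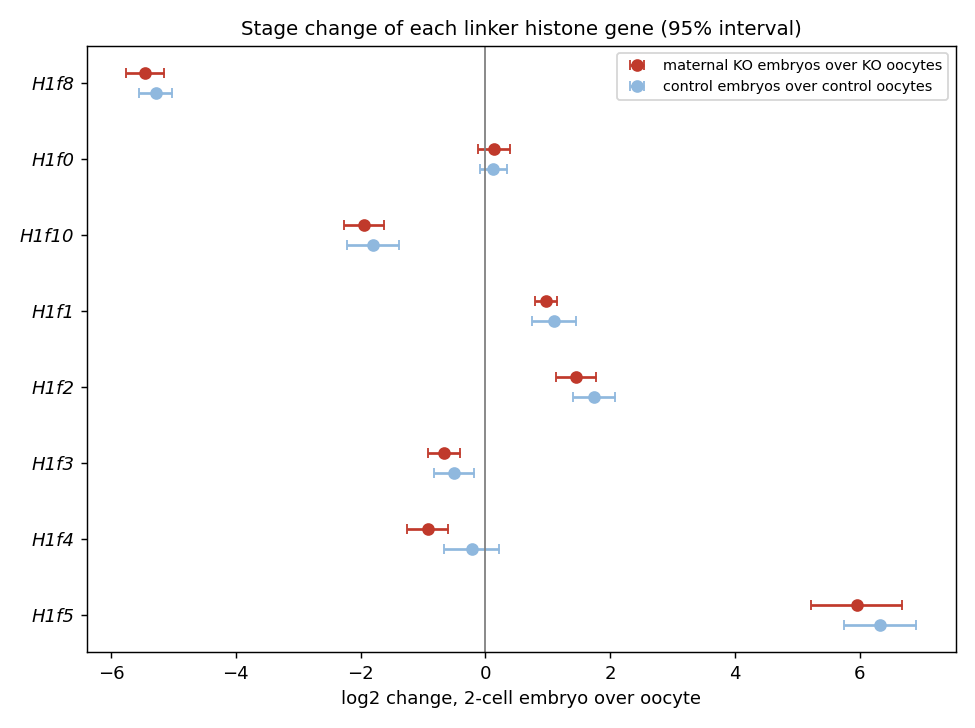
Log2 change of each linker histone gene, 2-cell embryo over oocyte, with its 95% interval from edgeR, for maternal knockout embryos over knockout oocytes (red) and control embryos over control oocytes (blue). H1f8 lies at -5.45 and -5.29 and H1f5 at 5.95 and 6.32, and the intervals of H1f0 include 0 in both.

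Parts of 3 cluster genes read alike, which bears on H1f2, H1f3 and H1f4. Within the RefSeq span of these genes, 19.1%, 22.4% and 21.1% of all runs of 50 bases recurred in one or both of the other 2, so that reads from these runs match more than 1 gene and the counts of these 3 genes are less certain. No run of H1f8, H1f1 or H1f5 recurred in another GENCODE gene, and 5.68% of H1f0 and 16.2% of H1f10 recurred in 1 predicted gene each. The treatment of such reads by the authors was not given in the sources used here.

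Per length, H1f8 and H1f1 made up most of the linker histone reads in oocytes, and H1f1 alone did in embryos. H1f8 took 1.74 ± 0.391% of the linker histone reads per kilobase in maternal knockout embryos and 1.87 ± 0.307% in control embryos, against 58.4 ± 0.190% in knockout oocytes and 59.1 ± 1.64% in control oocytes (SD, n = 2, 3, 3 and 3). H1f1 took 90.9 ± 1.91%, 90.4 ± 2.05%, 35.8 ± 0.209% and 35.2 ± 1.63% in the same groups. The shares did not overlap between stages and overlapped between genotypes for both genes. H1f5 held 1.25% and 2.52% in maternal knockout embryos and 1.14%, 1.93% and 2.76% in control embryos, against at most 0.0314% in any oocyte library, and no other gene passed 3% in any library.

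In control oocytes the mean RPKM ran from H1f8 (1810) over H1f1 (1078), H1f3 (78.8), H1f10 (36.9), H1f0 (33.6), H1f4 (19.1) and H1f2 (7.44) to H1f5 (0.574). Knockout oocytes had the same order, and in both groups the ranges of neighbours in it did not overlap. In control embryos the order was H1f1 (2340), H1f3 (56.4), H1f8 (47.1), H1f5 (46.9), H1f0 (37.2), H1f2 (25.3), H1f4 (16.6) and H1f10 (10.7). There the ranges of H1f3, H1f8, H1f5 and H1f0 each overlapped with the next, as did those of H1f4 and H1f10, so their order is not settled by these libraries. The 8 genes together had 2583 ± 227 RPKM in maternal knockout embryos and 2581 ± 595 in control embryos, against 3246 ± 155 in knockout oocytes and 3064 ± 113 in control oocytes. The 5 cluster genes together had 2491 ± 240 and 2486 ± 598 RPKM in these embryos, against 1280 ± 68.4 and 1184 ± 74.6 in these oocytes, and their embryo and oocyte libraries did not overlap.

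**Figure D3:**
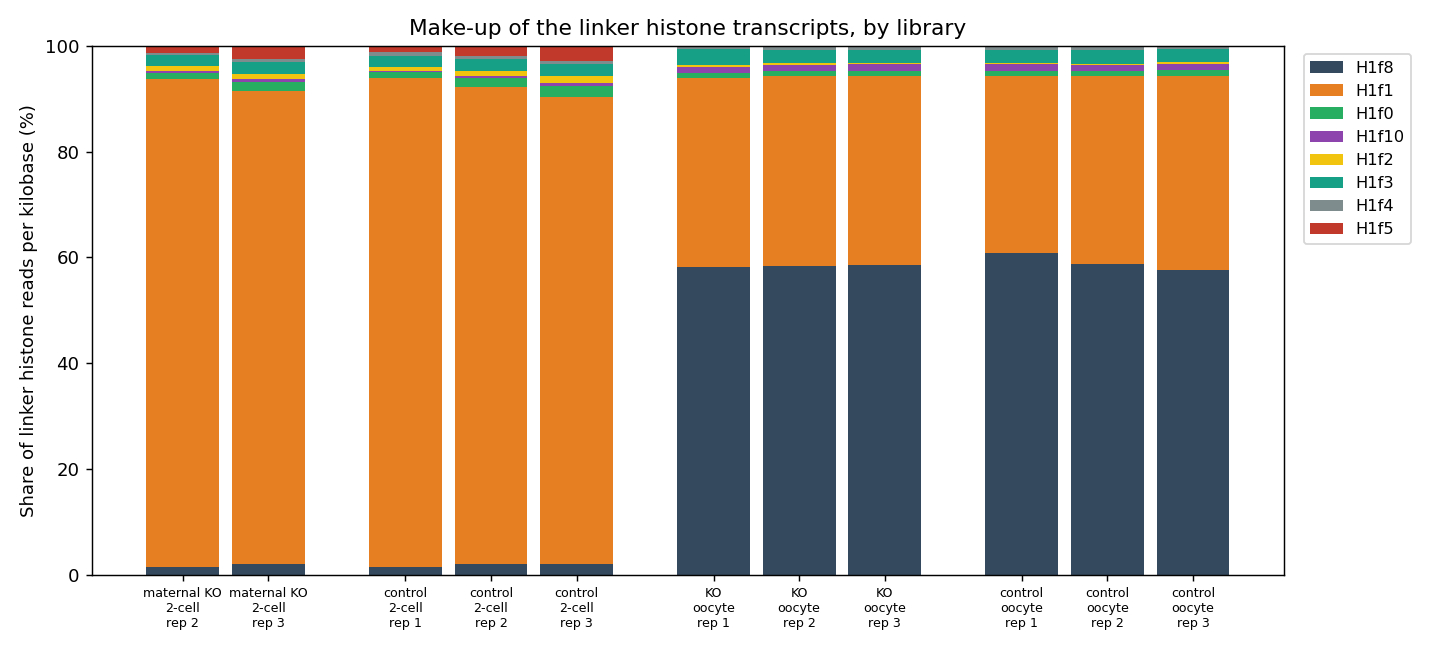
Share of each linker histone gene in the linker histone reads per kilobase of gene width, one bar per library adding up to 100%, in the order maternal knockout 2-cell embryos, control 2-cell embryos, knockout oocytes and control oocytes. H1f1 fills 88.3% to 92.5% of the embryo bars, and H1f8 57.7% to 60.9% of the oocyte bars.

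Whether loss of Daxx in growing oocytes goes with other linker histone levels was the next comparison. Between knockout and control oocytes none of the 8 genes passed (0 by edgeR, by DESeq2 and by limma-voom), in a comparison where 0.583% of 14235 genes passed with edgeR. DESeq2 gave no adjusted p for H1f5 here. One, H1f2, had an unadjusted p under 0.05. Its log2 change was 0.28 (SE 0.12, adjusted p = 0.46, edgeR), and the knockout libraries were all above the control libraries, which was so for 1 of the 8 members and, in either direction, for 15.7% of all genes tested. H1f4 had a log2 change of 0.23 (SE 0.11, adjusted p = 0.49, edgeR) with overlapping groups. H1f8 differed by 0.05 (95% interval -0.05 to 0.14), H1f1 by 0.09 (-0.03 to 0.20), H1f3 by 0.11 (-0.08 to 0.29), H1f10 by 0.04 (-0.10 to 0.18) and H1f0 by -0.07 (-0.20 to 0.06) on the log2 scale. For H1f5, with few reads in oocytes, the interval was wide, at -0.46 to 1.18 around 0.36.

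Between maternal knockout and control embryos likewise none of the 8 passed (0 by edgeR, by DESeq2 and by limma-voom), and 0 had an unadjusted p under 0.05, where 0.026% of 15414 genes passed with edgeR. The value farthest from 0 was that of H1f4, with a log2 change of -0.47 (SE 0.26, adjusted p = 1, edgeR) and a 95% interval of -1.01 to 0.07. The maternal knockout libraries were below all control libraries for H1f4 alone of the 8, and groups did not overlap for 17.8% of all genes tested. H1f8 differed by -0.11 (95% interval -0.48 to 0.25), H1f1 by -0.04 (-0.48 to 0.40), H1f0 by -0.04 (-0.38 to 0.29) and H1f10 by -0.09 (-0.64 to 0.46). H1f2 lay at -0.0012 (-0.41 to 0.41), H1f3 at -0.05 (-0.45 to 0.35) and H1f5 at 0.0019 (-0.54 to 0.54) on the log2 scale. The intervals of all 8 genes but H1f5 were wider than in oocytes. There were 2 maternal knockout libraries, embryo libraries had fewer reads than oocyte libraries, and embryo replicates differed more. The part of each in the wider intervals was not tested. Daxx, the targeted gene, did not pass in embryos either (log2 -0.75, SE 0.19, adjusted p = 0.54, edgeR). A missing call in this comparison is thus no sign of equal levels.

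The genotype effect was compared between the stages in 1 fit of all 11 libraries, which reuses those of the comparisons above. Of the 8 genes 0 passed with edgeR, DESeq2 or limma-voom, where 0.0118% of 17018 genes passed with edgeR, and 1 had an unadjusted p under 0.05. This was H1f4, whose effect was lower by 0.71 on the log2 scale in embryos than in oocytes (SE 0.27, adjusted p = 0.91, edgeR). The same term is the difference of the stage change between the genotypes, so the fall of H1f4 in the knockout lineage was not shown to differ from its control value. For H1f8 the difference was -0.17 (95% interval -0.50 to 0.15), and for H1f5 -0.38 (-1.38 to 0.63).

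**Figure D4:**
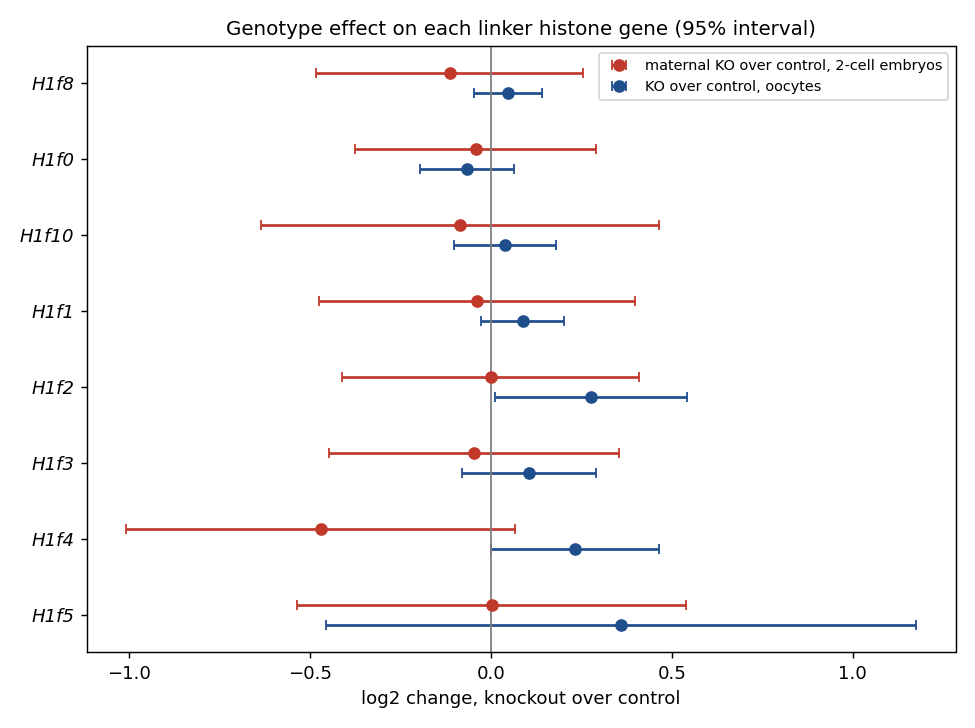
Log2 change of each linker histone gene, knockout over control, with its 95% interval from edgeR, for maternal knockout over control 2-cell embryos (red) and knockout over control oocytes (blue). All embryo intervals include 0, and of the oocyte intervals only that of H1f2, from 0.01 to 0.54, does not; no gene passed after adjustment.

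Genes that act with linker histones were compared between the stages in the same fits. Of 9 genes for chaperones that bind linker histones, 6 were higher and 2 lower in control embryos than in control oocytes, with a median log2 change of 0.50 beside 0.07 over all genes. That share is near the 83.1% of all genes tested that passed (43.1% higher, 40% lower), so the count says nothing particular about chaperones. Set, which encodes a histone chaperone that binds linker histones, averaged 104 ± 15.8 CPM in control embryos and 6.93 ± 0.469 CPM in control oocytes (SD, n = 3 each), a log2 change of 3.88 (SE 0.14, adjusted p = 3.6e-10, edgeR). Ptma, the gene of prothymosin alpha, rose by 1.88 and Nap1l1, a nucleosome assembly gene, by 0.97 on the log2 scale. Npm2, the oocyte nucleoplasmin that remodels sperm chromatin, fell to 160 ± 32.0 CPM in control embryos, against 1103 ± 50.7 CPM in control oocytes, by 2.81 on the log2 scale (SE 0.13, adjusted p = 2.8e-09, edgeR). In the knockout lineage 5 of the 9 were higher and 2 lower, where 80.2% of all genes passed (42.5% higher, 37.7% lower).

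High mobility group (HMG) proteins compete with linker histones for nucleosomes or linker DNA. Of 9 such genes, 4 were higher and 3 lower in control embryos, and 4 were higher and 4 lower in maternal knockout embryos, close to the 83.1% and 80.2% of all genes that passed. Hmgb3 (log2 3.34), Hmgn5 (3.01) and Hmgn3 (2.33) rose, and Hmgn1 fell by 1.82 on the log2 scale, in control embryos against control oocytes (adjusted p between 7.5e-11 and 2.2e-06, edgeR). Hmgn1 averaged 65.7 ± 8.17 CPM in control embryos and 229 ± 10.2 CPM in control oocytes, and Hmgn5 averaged 214 ± 24.3 and 26.2 ± 1.33 CPM in the same groups (SD, n = 3 each).

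Of 12 genes for transcription and 3′ processing of replication-dependent histone mRNAs, 4 were higher and 7 lower in control embryos, with the same counts in the knockout lineage. Of all genes tested, 43.1% were higher and 40% lower in controls and 42.5% and 37.7% in the knockout lineage, and a list of this size is not set apart from them by its count. Npat, an activator of these histone genes, rose by 2.38 on the log2 scale, with 262 ± 12.1 CPM in control embryos and 49.4 ± 1.20 CPM in control oocytes (SD, n = 3 each, adjusted p = 4.1e-10, edgeR). Coil, the gene of the Cajal body protein coilin, rose by 3.96 (adjusted p = 4.4e-10, edgeR). Slbp, whose product binds the stem-loop printed above, was lower in control embryos at 457 ± 18.3 CPM, against 989 ± 20.3 CPM in control oocytes, by a log2 change of -1.14 (adjusted p = 9.1e-08, edgeR). Cpsf3, the nuclease of histone pre-mRNA cleavage, fell by 2.57 (adjusted p = 1.1e-08, edgeR).

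The replication-dependent core histone genes moved mostly upward. Of 56 in the table, 53 were tested, 47 were higher and 1 lower in control embryos, where 43.1% of all genes tested were higher and 40% lower, with a median log2 change of 2.01 beside 0.07 over all genes. In maternal knockout embryos against knockout oocytes 50 of 55 were higher and 1 lower, where 42.5% of all genes tested were higher and 37.7% lower, with a median of 2.15 beside 0.09 over all genes. H3c11 averaged 35.4 ± 6.83 CPM in control embryos and 0.688 ± 0.0774 CPM in control oocytes (SD, n = 3 each), and H2ac15, H3c3 and H2bc22 rose by 6.30, 5.19 and 4.91 on the log2 scale. The gene that fell in controls was H2ac1, by 0.75 (adjusted p = 0.00049, edgeR). In the knockout lineage it was H2bc1 (log2 -0.59, adjusted p = 0.0014, edgeR). Both were named after their values were seen, and neither passed in the other lineage (adjusted p = 0.21 for H2ac1 and 0.068 for H2bc1, edgeR). Core histone genes have near-identical copies, so single values are uncertain. Among the testis linker histone genes, H1f6 averaged 0.700, 0.636, 0.934 and 0.655 CPM in maternal knockout embryos, control embryos, knockout oocytes and control oocytes, and H1f7 and Hils1 held at most 15 reads over a group. No gene of these 5 lists passed between genotypes (0 by edgeR in embryos and in oocytes), while 2 in embryos and 3 in oocytes had an unadjusted p under 0.05. Over all genes tested, 491 of 15414 in embryos and 1464 of 14235 in oocytes had such a p (edgeR).

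The genes most like H1f8 across the 11 libraries, by Pearson's r of log2(CPM + 1) among 9413 genes, were Pfdn1, Igbp1 and Dera (r = 0.9995 each) and Stk32a and Dlgap5 (0.9994 each). Dlgap5 averaged 54.7 and 60.6 CPM in maternal knockout and control embryos, against 354 and 346 CPM in knockout and control oocytes. The libraries fall into 2 stages, and the values rest chiefly on levels that were low in embryos and high in oocytes. For H1f0 the closest were Ahsa1 (0.939), Lsm14a (0.928), Eef2 and Prkaa2 (0.899 each) and B9d1 (0.896). Their points share libraries and depth, and Ahsa1 averaged 184 CPM in both embryo groups, against 147 and 151 CPM in knockout and control oocytes.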

How the data were processed

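Per the labels' protocols, total RNA went through the SoLo RNA-Seq kit. The authors deposited whole-number read counts per gene for 24421 Entrez genes, with a width per gene. Reads were mapped with STAR 2.5.0a to GRCm38 (mm10) and SAMtools was used, per the submitters' processing notes. The counting program, its use of strand and its treatment of duplicate and shared reads were not given in the sources used here. Symbols and coordinates came from RefSeq (GRCm38.p6), which held 24387 of the identifiers, and transcript structures from GENCODE M21. Maternal knockout embryo libraries are replicates 2 and 3, and the count table used here held no replicate 1 of this group.

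Groups follow the genotype and stage in the labels. P-values measure the spread between these pools, drawn in the fit towards a spread shared over genes. Between maternal knockout and control embryos the fit had up to 17.7 degrees of freedom, so there the spread rests mainly on what genes share. CPM used library totals and RPKM the deposited width. Tests used edgeR 4.0.16 (R 4.3.3) on the libraries compared: filterByExpr with groups (count minimum 10, total minimum 15), TMM factors, robust quasi-likelihood F test and Benjamini-Hochberg adjustment over all genes tested. An adjusted p under 0.05 passed. The SE is the log2 change over the square root of F, and 95% intervals use the fit's degrees of freedom. Total counts of 17978192 to 39798586 put 3 reads at 0.0754 to 0.167 CPM, which covers counting error only. Replicates of a group differed by 4.86 to 34.3 in chi-square per degree of freedom, so none was a duplicate. The tests were also run on simulated counts in which few genes changed. Between the stages most genes passed, so that run does not check the stage comparisons. Alternatives were DESeq2 1.42.0, limma-voom 3.58.1, RLE factors, a replicate block, all libraries in 1 fit, other filters, each library left out and, added after the data were seen, library totals without scaling factors. Between maternal knockout embryos and 1 other group, the replicate block kept only replicate numbers found in both. It thus also left out replicate 1 of the other group.

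The 8 genes were chosen by name. They, the other gene lists and the markers were chosen with earlier results of these data known. From each list the 4 genes with the smallest p in control embryos against control oocytes are named, and for H1f8 and H1f0 the 5 genes with the highest correlation, leaving out predicted genes, pseudogenes and small RNAs.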

Additional observations from a re-analysis of the deposited data

How the results depend on the processing

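Every stage change of a linker histone gene that passed kept its direction and its adjusted p under 0.05 in all alternative fits run, 14 for controls and 13 for the knockout lineage, which include leaving out each library. Requiring at least 2-fold as well left, in maternal knockout embryos against knockout oocytes, 2 of the 3 higher genes (without H1f1) and 2 of the 4 lower genes (without H1f3 and H1f4). In control embryos against control oocytes it left all 3 higher genes and 2 of the 3 lower genes (without H1f3). Leaving out 1 library gave 3 to 4 genes higher in maternal knockout embryos and 3 to 4 lower in control embryos, the added genes being H1f0 and H1f4. Without division by gene width, H1f8 held 2.72%, 2.91%, 68.2% and 68.7%, and H1f1 87.0%, 86.3%, 25.6% and 25.1%, of linker histone reads in maternal knockout embryos, control embryos, knockout oocytes and control oocytes.

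Among the linker histone genes, signs turned only for changes that did not pass. Between maternal knockout and control embryos, log2 values turned for H1f1 to 0.0060 (limma-voom), 0.0054 (library totals) and 0.19 (replicate block), for H1f2 to 0.0038 (limma-voom), 0.0007 (no filter), 0.0013 (filter at 1 CPM), 0.034 (library totals) and 0.071 (replicate block), for H1f3 to 0.11 (replicate block), and for H1f5 to -0.0010 (DESeq2), -0.074 (limma-voom), -0.0022 (RLE), -0.014 (all 11 libraries) and -0.20 (replicate block). In these embryo fits the replicate block also left out control embryo replicate 1, so blocking and leaving out that library cannot be told apart. The difference between stages for H1f0 turned to -0.041 with the replicate block. With 1 library left out, the embryo values ran from -0.31 to 0.050 for H1f8, -0.23 to 0.12 for H1f0, -0.31 to 0.10 for H1f10, -0.23 to 0.17 for H1f1, -0.052 to 0.071 for H1f2, -0.21 to 0.092 for H1f3 and -0.52 to 0.38 for H1f5. The difference between stages ran from -0.15 to 0.17 for H1f0, -0.35 to 0.060 for H1f10, -0.32 to 0.071 for H1f1 and -0.87 to 0.0037 for H1f5, and H1f0 in the knockout lineage from -0.046 to 0.29. The cause was not tested.

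The share of all genes that pass between genotypes depends on the tool. In oocytes 64 were higher and 19 lower with edgeR, 153 and 70 with DESeq2, 130 and 53 without the filter, and 18 and 4 with all libraries in 1 fit. In embryos 4 and 0 became 9 and 1 with DESeq2, 30 and 2 without the filter, 12 and 1 with all libraries, and 2 and 0 with limma-voom. Replicate numbers were not used as pairs in the main tests, as the labels name no shared batch. Deviations from group means correlated between -0.23 and 0.26 for libraries with the same number. For libraries with different numbers they correlated between -0.42 and 0.32. Deviations from the mean of so few libraries depend on each other, so these values cannot show whether numbers mark a batch. With the replicate block the oocyte counts were 78 and 32, and no call of a linker histone gene changed.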
